A study of Mus musculus with 9 samples.

Results

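The dual-specificity MAP kinase phosphatases were followed in mouse primary renal tubular epithelial cells. The family was taken as the 10 genes Dusp1, Dusp2, Dusp4, Dusp5, Dusp6, Dusp7, Dusp8, Dusp9, Dusp10 and Dusp16, found by their symbols among the 31167 genes of the deposited table. All 10 were present and all 10 passed the filter of a mean of 0.5 FPKM or more. FPKM counts fragments per kilobase of exon and scales them to the size of the library, so levels could be compared between genes.

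RNA was sequenced from 3 groups of primary cells of C57BL/6 kidney, with 3 libraries per group. Sham was the negative control. H/R cells spent 6 h at 1.0% oxygen in medium without glucose and then 18 h in complete medium under normal conditions, a culture model of ischemia and reperfusion. EGR1OV cells were transfected with a plasmid that expresses the transcription factor Egr1 from a CMV promoter, which is active in many cell types. The study describes Sham cells as left without treatment, while the labels give the transfection step for every sample and do not say whether Sham or H/R cells received an empty vector, so the plasmid and the Egr1 it carries cannot be told apart in EGR1OV. Neither the age of the mice, nor the number of mice, nor the source of each replicate is given, so p-values measure the spread between these libraries, which may be technical.

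MAP kinases carry signals from growth factors and stress to the nucleus, and they are active while a threonine and a tyrosine of their activation loop are both phosphorylated. Dual-specificity phosphatases of this family remove both phosphates and so switch ERK, JNK and p38 off again. Many of these genes are themselves transcribed in response to MAP kinase activity, which closes a negative feedback loop. The family is usually divided into nuclear and inducible enzymes (Dusp1, Dusp2, Dusp4 and Dusp5), cytoplasmic enzymes that prefer ERK (Dusp6, Dusp7 and Dusp9), and enzymes that act mainly on JNK and p38 (Dusp8, Dusp10 and Dusp16). In kidney epithelium, ERK, JNK and p38 are known to be activated by ischemic and oxidative stress. What was measured here is RNA, not protein and not the phosphorylation of any kinase.

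Library depth, recovered from the steps of the values, lay between 16183617 and 18384022 reads, and single values of the family rested on between 118 reads for Dusp9 and 2549 reads for Dusp1. Egr1 itself averaged 6.40 ± 0.443 FPKM in Sham and 7.88 ± 0.599 after H/R, and the EGR1OV mean was 42.6 ± 2.84 (SD, n = 3 each), so the overexpression was visible. Of 15 tubule markers in the table, the epithelial genes Cdh1, Epcam, Krt8 and Krt18 and the kidney factors Pax2 and Pax8 were well expressed. Umod, a marker of the thick ascending limb, was listed at 0 in all libraries, and Slc34a1, the phosphate carrier of the proximal tubule, was at no more than 0.0362 FPKM in any library. In EGR1OV the level of Krt8 was 618 against 1010 FPKM in Sham, that of Krt18 was 412 against 685, and that of Lrp2, the proximal tubule receptor megalin, was 1.22 against 3.6. Other tubule markers went the other way, with Epcam at 100 FPKM in EGR1OV against 76.2 in Sham and Cdh1 at 102 against 86.2. The summed level of macrophage markers was 159 to 166 FPKM in Sham and 136 to 145 after H/R, and in EGR1OV it was 45.2 to 53.1. Interferon-response genes summed to 2810 to 2870 FPKM in EGR1OV, against 23.5 to 31.1 in Sham and 29.4 to 29.7 after H/R. In bulk RNA, fewer cells of a type and less RNA per cell cannot be told apart.

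Dusp1 had the highest level of the family in Sham cells and Dusp9 the lowest. In Sham, Dusp1 stood at 55.0 ± 1.01 FPKM, followed by Dusp4 at 35.5 ± 1.28, Dusp6 at 22.8 ± 0.947 and Dusp5 at 21.3 ± 1.16 (SD, n = 3 each). Dusp7 at 12.9 ± 0.303, Dusp8 at 10.6 ± 0.221 and Dusp10 at 10.4 ± 0.181 formed the middle of the order. Dusp16 at 7.87 ± 0.238, Dusp2 at 4.25 ± 0.284 and Dusp9 at 2.80 ± 0.252 were lowest. The Sham ranges of Dusp6 and Dusp5 overlapped, as did those of Dusp8 and Dusp10, and no other neighbours in this order did. After H/R, Dusp6 and Dusp5 were the only neighbours whose ranges overlapped, and Dusp10 stood above Dusp8. In EGR1OV the order began with Dusp4, whose range overlapped that of Dusp1, and the pairs Dusp6 and Dusp5 and Dusp16 and Dusp8 overlapped as well.

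**Figure D1:**
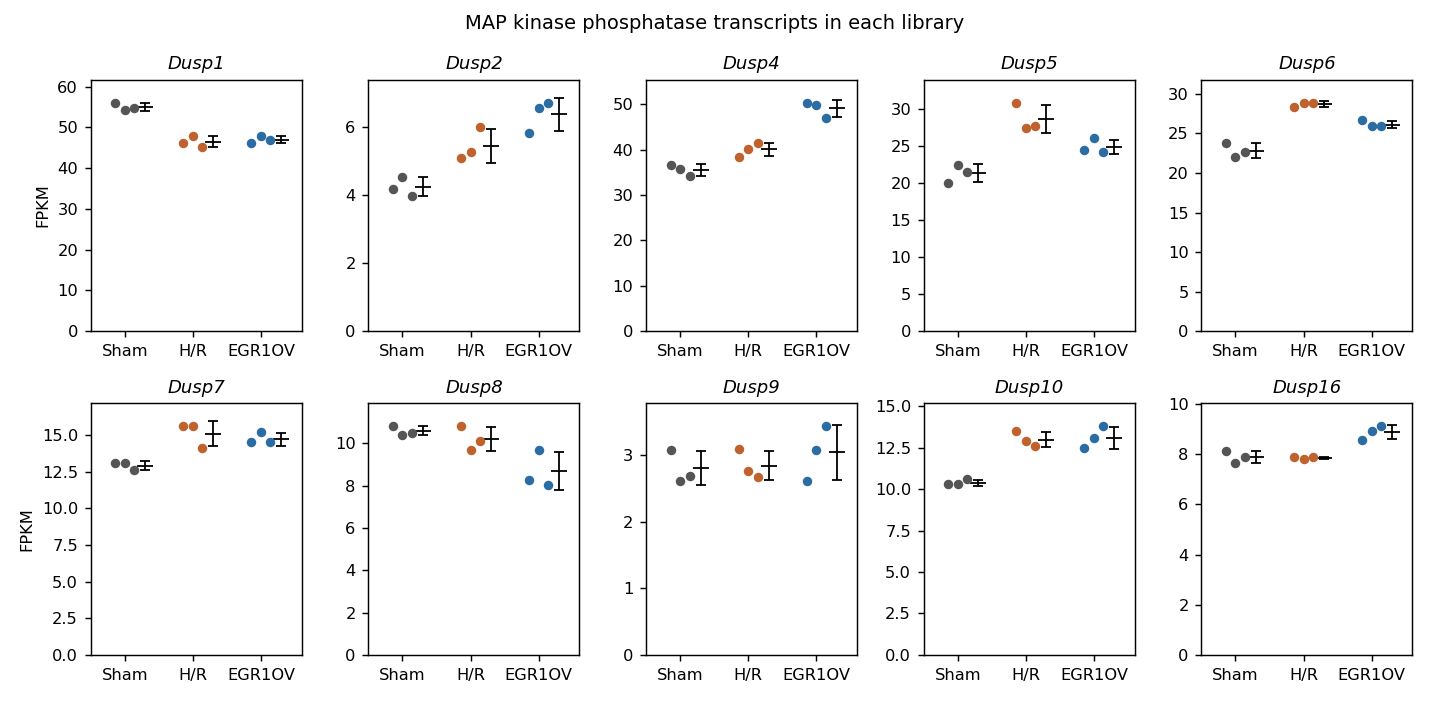
FPKM of the 10 phosphatase genes in each of the 9 libraries, with 1 panel per gene, a linear axis from 0 that differs between panels, points for single libraries, and bars for the mean and SD (n = 3). Dusp1 is lower in both treated groups than in Sham, Dusp5 and Dusp6 are highest after H/R, and Dusp4 is highest in EGR1OV.

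Summed over the 10 genes, the family reached 186, 183 and 181 FPKM in the Sham libraries, 200, 198 and 197 in the H/R libraries, and 200, 206 and 200 in the EGR1OV libraries. Both treated groups lay above Sham in summed level, by little. The make-up of the sum differed more. Dusp1 made up 30.0% ± 0.313 of it in Sham, but 23.4% ± 0.623 after H/R and 23.3% ± 0.238 with the Egr1 plasmid (SD, n = 3 each). The share of Dusp4 was 19.4% ± 0.447 in Sham, 20.2% ± 0.897 after H/R and 24.3% ± 0.837 in EGR1OV. The ratio of Dusp1 to Dusp4 was therefore 1.53, 1.52 and 1.60 in Sham, 1.2, 1.19 and 1.09 after H/R, and 0.915, 0.959 and 0.999 in EGR1OV. These 3 sets of ratios did not overlap, and Dusp1 was above Dusp4 in each Sham and H/R library. In EGR1OV, Dusp1 was below Dusp4 in replicates 1 and 2 and about level with it in replicate 3, at 47.0 and 47.1 FPKM.

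**Figure D2:**
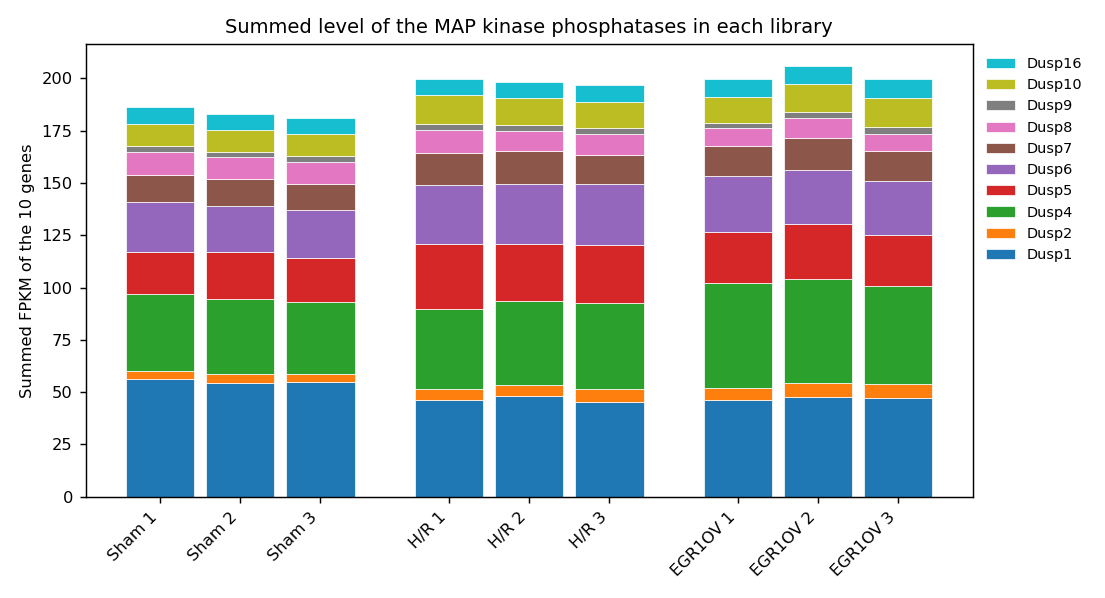
Stacked bars of the FPKM of the 10 phosphatase genes in each library, drawn from 0. The sum is 181 to 186 FPKM in Sham and 197 to 206 in the treated groups, while the lowest block, Dusp1, is smaller and the Dusp4 block is larger in EGR1OV than in Sham.

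RefSeq promoters on GRCm38.p6 were at hand for 8 of the 10 genes, and Dusp4 and Dusp9 were not among them. The 250 bases before the RefSeq start were searched on both strands for short motifs of factors that answer to MAP kinases, cyclic AMP, hypoxia, interferon or Egr1. The 4 windows printed here hold matches in promoters of members that passed the test in at least 1 comparison with Sham, written 5′ to 3′ on the strand of the gene, and stop before the gene start in the deposited table where that lies further upstream. Capitals mark a match to a CArG box (the site of serum response factor, in Dusp5), a cyclic AMP response element (TGACGTCA, in Dusp1) or an Egr site (GCGNGGGCG or its complement, in Dusp2 and Dusp16).
Dusp5, chr19:53528895-53529108, plus strand: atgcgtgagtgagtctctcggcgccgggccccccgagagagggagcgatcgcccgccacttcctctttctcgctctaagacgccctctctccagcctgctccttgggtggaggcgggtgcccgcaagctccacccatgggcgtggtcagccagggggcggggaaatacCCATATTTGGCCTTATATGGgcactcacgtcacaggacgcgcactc
Dusp1, chr17:26508520-26508722, minus strand: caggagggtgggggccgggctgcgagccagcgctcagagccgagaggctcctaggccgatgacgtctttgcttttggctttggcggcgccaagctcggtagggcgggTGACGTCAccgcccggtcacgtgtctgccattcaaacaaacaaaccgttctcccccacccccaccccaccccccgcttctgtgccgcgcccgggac
Dusp2, chr2:127335909-127336158, plus strand: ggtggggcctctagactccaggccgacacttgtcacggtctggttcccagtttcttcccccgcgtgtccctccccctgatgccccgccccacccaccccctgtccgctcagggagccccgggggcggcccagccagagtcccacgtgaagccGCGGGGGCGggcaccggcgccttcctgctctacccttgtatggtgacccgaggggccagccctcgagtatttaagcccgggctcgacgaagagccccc
Dusp16, chr6:134792629-134792878, minus strand: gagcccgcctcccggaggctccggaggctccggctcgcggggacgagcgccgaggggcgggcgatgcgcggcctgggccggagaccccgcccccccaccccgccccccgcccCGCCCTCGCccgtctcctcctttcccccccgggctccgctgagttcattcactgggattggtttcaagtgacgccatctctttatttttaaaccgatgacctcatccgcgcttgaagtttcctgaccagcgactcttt
The Dusp5 window held 2 CArG boxes side by side, 82 to 73 and 72 to 63 bases before the start, and 1.47% of 32851 promoters of this length held at least 1. The cyclic AMP response element of Dusp1 lay 143 to 136 bases before the start. Dusp8, whose window lies inside the gene as the table gives it and is not printed, held 2 such elements, 107 to 100 and 63 to 56 bases before its RefSeq start, against 1.55% of all promoters with any. The Egr site lay 98 to 90 bases before the start in Dusp2 and 138 to 130 in Dusp16, and 4.70% of promoters held this motif. Its letters are nearly all G and C, which made up 70.4% of the Dusp2 window and 68.4% of the Dusp16 window. The median of all promoters was 52.4%, so the share of 4.70% is not that of promoters alike in G and C. The core of the hypoxia response element (ACGTG, not in capitals), found in 16.6% of promoters, was present in Dusp1, Dusp2 and Dusp5. None of the 8 windows held an AP-1 site (TGANTCA, 6.75% of promoters), an ETS site (CCGGAAG, 6.91%), a kappa B site (7.25%) or an interferon-stimulated response element (2.98%). The windows of Dusp6, Dusp7 and Dusp10, which also passed the test against Sham, held no match to any motif searched. The RefSeq starts of Dusp8 and Dusp10 lie 559 and 21079 bases inside the gene as the table gives it, so their windows are those of an inner start. A match is a description of the letters and not evidence of binding.

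H/R was set against Sham to see how the cells stood after hypoxia and reoxygenation. Dusp5, Dusp6, Dusp10, Dusp2, Dusp7 and Dusp4 rose, Dusp1 fell, and Dusp8, Dusp9 and Dusp16 did not pass the test. The largest change was that of Dusp5, and no change reached 1.5-fold. At an adjusted p under 0.05 (limma, Benjamini-Hochberg over all genes tested), 6 of 10 members were higher and 1 was lower, where 4.15% of 13985 genes were higher and 7.54% were lower, 11.7% in all. With a change of at least 1.2-fold added, 4 members were called, all higher, against 1.60% of genes called higher and 4.25% called in either direction. The median change of the 10 members was +0.19 on the log2(FPKM + 1) scale, and that of all genes tested was -0.03.

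Among the nuclear inducible enzymes, Dusp5 (ENSMUSG00000034765, chromosome 19, 53529109 to 53542431, plus strand), which acts on ERK and holds it in the nucleus, was at 20.0, 22.4 and 21.4 FPKM in Sham and 30.8, 27.4 and 27.7 in H/R. The groups did not overlap, and H/R replicate 1 was the highest library. The change was +0.41 (SE 0.055, limma adjusted p 0.00261), with mean levels in a ratio of 1.35. Dusp2 (ENSMUSG00000027368, chromosome 2, 127336159 to 127338376, plus strand), an inducible phosphatase best known from immune cells, was at 4.19, 4.55 and 3.99 FPKM in Sham and 5.09, 5.27 and 6.02 in H/R. The change was +0.30 (SE 0.071, adjusted p 0.029), without overlap. Lymphocyte markers were near 0 in the same libraries, with 6 of 8 in the table and sums of 0.328 to 0.485 FPKM in Sham and 0.312 to 0.345 in H/R. Macrophage markers were present, with sums of 159 to 166 FPKM in Sham and 136 to 145 in H/R. Which cells the Dusp2 RNA came from was not tested. The adjusted p of Dusp2 was above 0.05 without Sham replicate 1 (0.0792), Sham replicate 3 (0.0906), H/R replicate 2 (0.0563) or H/R replicate 3 (0.0834), which left 3 called members.

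Dusp4 (ENSMUSG00000031530, chromosome 8, 34807297 to 34819894, plus strand), a nuclear phosphatase of ERK and other MAP kinases, was at 36.7, 35.8 and 34.2 FPKM in Sham and 38.5, 40.2 and 41.4 in H/R. The values did not overlap, but the change was only +0.17 (SE 0.04, adjusted p 0.0289) and under 1.2-fold. Without Sham replicate 2 or 3 or H/R replicate 2 or 3 the adjusted p was 0.0687, 0.0893, 0.0772 and 0.0902. Dusp1 (ENSMUSG00000024190, chromosome 17, 26505590 to 26508519, minus strand), the immediate early phosphatase that acts on p38 and JNK as well as ERK, moved the other way. It was at 56.1, 54.2 and 54.7 FPKM in Sham and 46.2, 47.9 and 45.3 in H/R. All H/R libraries were lower than all Sham libraries, with a change of -0.24 (SE 0.029, adjusted p 0.00178) and a ratio of 0.845.

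Of the cytoplasmic enzymes, Dusp6 (ENSMUSG00000019960, chromosome 10, 99263231 to 99267489, plus strand), the main feedback phosphatase of ERK, was at 23.8, 22.0 and 22.6 FPKM in Sham and 28.3, 28.8 and 28.9 in H/R. The groups were well apart, and the change was +0.32 (SE 0.033, adjusted p 0.000844), the smallest p of the family in this comparison. Dusp7 (ENSMUSG00000053716, chromosome 9, 106368632 to 106375724, plus strand), a close relative of Dusp6, was at 13.1, 13.1 and 12.6 FPKM in Sham and 15.6, 15.6 and 14.1 in H/R. It rose by +0.21 (SE 0.043, adjusted p 0.0177), without overlap and under 1.2-fold, and its adjusted p was 0.0637, 0.054 and 0.0583 without Sham replicate 3, H/R replicate 1 or H/R replicate 2. Dusp9 (ENSMUSG00000031383, chromosome X, 73639419 to 73643514, plus strand), the X-linked member, was at 3.08, 2.61 and 2.69 FPKM in Sham and 3.09, 2.76 and 2.67 in H/R. These ranges overlapped almost fully, and the 95% confidence interval of the difference ran from -0.17 to 0.21.

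Of the enzymes directed at JNK and p38, Dusp10 (ENSMUSG00000039384, chromosome 1, 184013302 to 184075636, plus strand) was at 10.3, 10.3 and 10.6 FPKM in Sham and 13.5, 12.9 and 12.6 in H/R. It was higher in all H/R libraries, by +0.30 (SE 0.042, adjusted p 0.00329). A gene on the opposite strand, 1700056E22Rik, overlaps Dusp10 with means of 0.863 ± 0.213 FPKM in Sham, 1.00 ± 0.153 after H/R and 1.31 in EGR1OV (n = 3 each), and it is not stated whether counting used the strand. Gm32786 and Gm36328, which overlap Dusp8 and Dusp16, were at no more than 0.359 and 0.275 FPKM in any library. Dusp8 (ENSMUSG00000037887, chromosome 7, 142079490 to 142095843, minus strand) was at 10.8, 10.4 and 10.5 FPKM in Sham and 10.8, 9.66 and 10.1 in H/R, with an interval of -0.19 to 0.10. Dusp16 (ENSMUSG00000030203, chromosome 6, 134715468 to 134792625, minus strand) was at 8.11, 7.63 and 7.87 FPKM in Sham and 7.89, 7.80 and 7.87 in H/R, with an interval of -0.08 to 0.08. Both pairs of groups overlapped. In all, 7 of 10 members did not overlap between H/R and Sham, against 33.6% of genes, and the exact two-sided permutation p of each was 0.1, the smallest that 3 against 3 libraries allow.

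EGR1OV was set against Sham to see which members differed in cells that had received the Egr1 plasmid. Dusp2 and Dusp4 rose by the most, Dusp10, Dusp5, Dusp6, Dusp7 and Dusp16 rose less, Dusp1 and Dusp8 fell, and Dusp9 did not pass the test. At an adjusted p under 0.05, 9 of 10 members passed, 7 higher and 2 lower, where 45.9% of all genes passed, 26.1% higher and 19.8% lower. With a change of at least 1.3-fold, 2 of 10 were called, both higher, against 16.4% of genes in either direction and 9.87% higher, so the called share of the family was close to the background. The median change was +0.18 for the members and +0.017 for all genes. Over the same libraries, 12 of 12 interferon-response genes were higher and 9 of 10 macrophage markers tested were lower in EGR1OV, with their summed levels given above. Summed fibroblast markers were at 1150 to 1210 FPKM in EGR1OV and 2910 to 3030 in Sham, tubule markers at 1270 to 1380 and 1930 to 1970, and endothelial markers at 13.3 to 14.3 and 16.3 to 17.0. The fibroblast sum was mostly Acta2, at 1130 and 2950 FPKM, and the tubule sum mostly Krt8 and Krt18, so these sums do not stand for their lists. Of 6 fibroblast markers tested, 2 were higher and 2 were lower in EGR1OV. Of 10 tubule markers 4 were higher and 5 lower, and of 6 endothelial markers 0 and 3. The part of these genes in the changes of the phosphatases was not tested.

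Dusp2 was at 5.83, 6.57 and 6.73 FPKM in EGR1OV, all above the highest Sham value of 4.55. The change was +0.49 (SE 0.071, limma adjusted p 0.000405), with mean levels in a ratio of 1.5. Lymphocyte markers summed to at most 0.261 FPKM in EGR1OV, and macrophage markers to 45.2 to 53.1 FPKM. Dusp4 was at 50.4, 49.9 and 47.1 FPKM, against a highest Sham value of 36.7. Its change was +0.46 (SE 0.04, adjusted p 1.49e-05), with a ratio of 1.38. Both calls were made whichever of the 9 libraries was left out, with changes of +0.457 to +0.546 for Dusp2 and +0.428 to +0.485 for Dusp4.

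The other nuclear inducible members differed in direction. Dusp5 was at 24.4, 26.0 and 24.2 FPKM in EGR1OV, above all Sham libraries, and rose by +0.22 (SE 0.055, adjusted p 0.00986). Dusp1 was at 46.1, 47.8 and 47.0 FPKM, below all Sham libraries, and fell by 0.22 on the log2(FPKM + 1) scale (SE 0.029, adjusted p 0.000181). Of the cytoplasmic enzymes, Dusp6 at 26.7, 25.9 and 25.9 FPKM and Dusp7 at 14.5, 15.2 and 14.5 FPKM also lay above their Sham ranges. Their changes were +0.19 (SE 0.033, adjusted p 0.0013) and +0.18 (SE 0.043, adjusted p 0.00853). Dusp9 was at 2.61, 3.08 and 3.43 FPKM, which overlapped Sham, with an interval of -0.10 to 0.28.

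The members directed at JNK and p38 split as well. Dusp10 at 12.5, 13.1 and 13.8 FPKM was above all Sham libraries, with a change of +0.31 (SE 0.042, adjusted p 0.000252), short of 1.3-fold. Dusp16 at 8.56, 8.94 and 9.11 FPKM was above them by +0.15 (SE 0.036, adjusted p 0.00675). Dusp8 at 8.26, 9.70 and 8.05 FPKM was below them by 0.262 on the log2(FPKM + 1) scale, with a ratio of 0.821 (SE 0.065, adjusted p 0.00876). EGR1OV replicate 2 was nearer to Sham than the other Dusp8 values, and the spread was the widest of the 3 groups. In all, 9 members did not overlap between EGR1OV and Sham, against 55.7% of genes, and each had an exact two-sided permutation p of 0.1. After quantile normalization the changes of Dusp5, Dusp7 and Dusp16 were +0.136, +0.068 and +0.051, with adjusted p of 0.0661, 0.228 and 0.305.

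**Figure D3:**
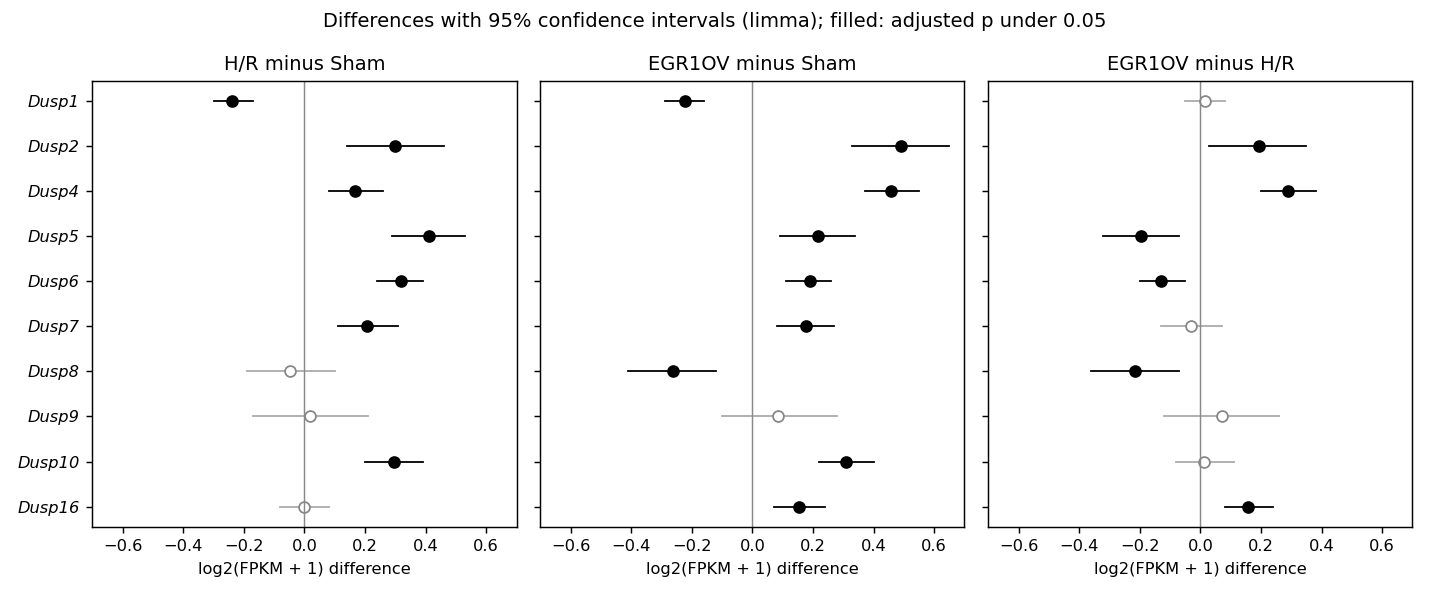
Difference in mean log2(FPKM + 1) for each phosphatase gene in the 3 comparisons, with 95% confidence intervals from the limma fit of 9 libraries. Filled points have an adjusted p under 0.05. Dusp5 and Dusp6 lie further to the right after H/R than in EGR1OV, and Dusp4 further to the right in EGR1OV, while Dusp1 is left of 0 in both comparisons with Sham.

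Both comparisons above share the Sham libraries, so the treated groups were also compared with each other. EGR1OV exceeded H/R in Dusp4, Dusp2 and Dusp16 and was below it in Dusp5, Dusp6 and Dusp8, at an adjusted p under 0.05. These 6 of 10 members stand beside 51.0% of all genes, 32.0% higher and 19.0% lower, so the share is near the background. No member passed with a change of at least 1.3-fold, where 18.9% of genes did. At an unadjusted p under 0.05, 6 members passed with limma on log2(FPKM + 1), beside 56.5% of genes, and 6 with limma voom on the recovered reads. Voom gave 5 members at an adjusted p under 0.05. The median difference was +0.01 for the members and +0.055 for all genes.

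Dusp4 was higher in EGR1OV, at 49.1 ± 1.79 FPKM in EGR1OV against 40.1 ± 1.48 in H/R (SD, n = 3 each), a difference of +0.29 (SE 0.04, limma adjusted p 0.000271) without overlap. This was the largest difference of the family as deposited, but under median-ratio scaling it was +0.218, against -0.279 for Dusp8 and -0.264 for Dusp5. Dusp5 was lower in EGR1OV, at 24.8 ± 0.984 against 28.6 ± 1.89 FPKM, a difference of -0.20 (SE 0.055, adjusted p 0.0142). Dusp6 was lower as well, at 26.1 ± 0.464 against 28.7 ± 0.365 FPKM, by -0.13 (SE 0.033, adjusted p 0.00947), and neither gene overlapped between the groups. So the pair of ERK phosphatases Dusp5 and Dusp6 stood highest after H/R, and Dusp4 stood highest in EGR1OV. Dusp16 was higher in EGR1OV without overlap, by +0.16 (SE 0.036, adjusted p 0.0054), although with median-ratio scaling and quantile normalization the adjusted p was 0.0608 and 0.768. These 4 members without overlap stand beside 58.6% of all genes.

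The remaining differences between EGR1OV and H/R rested on little. Dusp2 was higher in EGR1OV by +0.19 (SE 0.071, adjusted p 0.0476) with overlapping groups. Its adjusted p was above 0.05 without Sham replicate 1 (0.0634), Sham replicate 3 (0.0524), H/R replicate 1 (0.147), H/R replicate 2 (0.127), EGR1OV replicate 2 (0.126) or EGR1OV replicate 3 (0.143). Dusp8 was lower by -0.21 (SE 0.065, adjusted p 0.0205), also with overlap. Without H/R replicate 1, EGR1OV replicate 1 or EGR1OV replicate 3 its adjusted p was 0.0722, 0.0697 and 0.0724. For Dusp1, which fell in both comparisons with Sham, the interval of the difference was -0.05 to 0.08, and the sign turned to -0.054 with median-ratio scaling. For Dusp10, which rose in both, it was -0.08 to 0.11, and the sign turned to -0.12 after quantile normalization. The intervals were -0.13 to 0.07 for Dusp7 and -0.12 to 0.26 for Dusp9.

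Other genes of the MAP kinase pathway were read from lists. Of 17 tested genes known to respond to ERK activity, 6 were higher and none was lower after H/R, against 4.15% and 7.54% of all genes, with a list median of +0.12. The largest called changes after H/R were those of Phlda1, from 10.3 to 15.7 FPKM (adjusted p 0.0129), Fosl1, an AP-1 subunit, from 13.1 to 17.3 (adjusted p 0.0032), and Spry4, an inhibitor of receptor tyrosine kinase signalling, from 2.72 to 3.53 (adjusted p 0.0118). The other 11 did not pass the test. In EGR1OV 6 of these 17 were higher and 3 were lower, beside 26.1% and 19.8% of all genes, with a median of +0.04. The largest called changes there were those of Epha4, an ephrin receptor that fell from 11.1 to 5.92 FPKM, Ier3, which rose from 188 to 291, and Fosl1, which rose to 19.1.

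Of 17 immediate early genes tested, 11 were higher and 1 was lower in EGR1OV, beside 26.1% and 19.8% of all genes, with a median of +0.25. Atf3, a stress-induced factor, rose from 5.36 ± 0.537 to 13.7 ± 0.682 FPKM, Fos from 1.67 ± 0.134 to 4.55 ± 0.418 and Nr4a1 from 1.94 ± 0.189 to 4.77 ± 0.408 (SD, n = 3 each). Dusp1, itself an immediate early gene, fell in these libraries. After H/R 2 of the 17 were higher and 2 were lower, beside 4.15% and 7.54% of all genes, with Egr2 up from 0.832 to 1.94 FPKM (adjusted p 0.0049) and Atf3 down to 3.77 (adjusted p 0.0132). Both comparisons use the same Sham libraries.

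Of the kinases themselves, few passed the test after H/R, where 4.15% of all genes were higher and 7.54% were lower. Of 9 MAP kinases tested, 1 was higher, Mapk11 (p38 beta), from 4.56 ± 0.108 to 5.68 ± 0.30 FPKM (SD, n = 3 each, adjusted p 0.00809). Of 27 upstream kinases 1 was higher and 1 was lower. In EGR1OV 3 MAP kinases were higher and 2 were lower, shares near the 26.1% and 19.8% of all genes. Mapk11 was among the higher ones here too, at 6.14 ± 0.222 FPKM (change +0.36, limma adjusted p 0.00017). It did not pass the test between EGR1OV and H/R (adjusted p 0.11). Mapk13 (p38 delta) fell from 31.6 ± 1.62 to 22.5 ± 0.765 FPKM and was the MAP kinase past 1.3-fold on the log2(FPKM + 1) scale. Of the upstream kinases 11 were higher and 4 were lower in EGR1OV. Map2k1, which encodes the ERK kinase MEK1, rose from 39.4 ± 0.369 to 61.8 ± 1.42 FPKM (change +0.64, adjusted p 4.98e-07), the scaffold gene Ksr1 rose from 0.622 to 1.15, and Map3k20 fell from 27.7 to 20.5. Of 10 atypical dual-specificity phosphatases tested, which lack the kinase-binding domain of the family, 3 were higher and 2 were lower in EGR1OV, and Dusp28 was the one past 1.3-fold on the log2(FPKM + 1) scale, from 5.36 to 9.95 FPKM. After H/R none of these was higher and 1 was lower. Of 4 other phosphatases of MAP kinases tested, 2 were higher and 1 was lower in EGR1OV, and none passed after H/R.

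**Figure D4:**
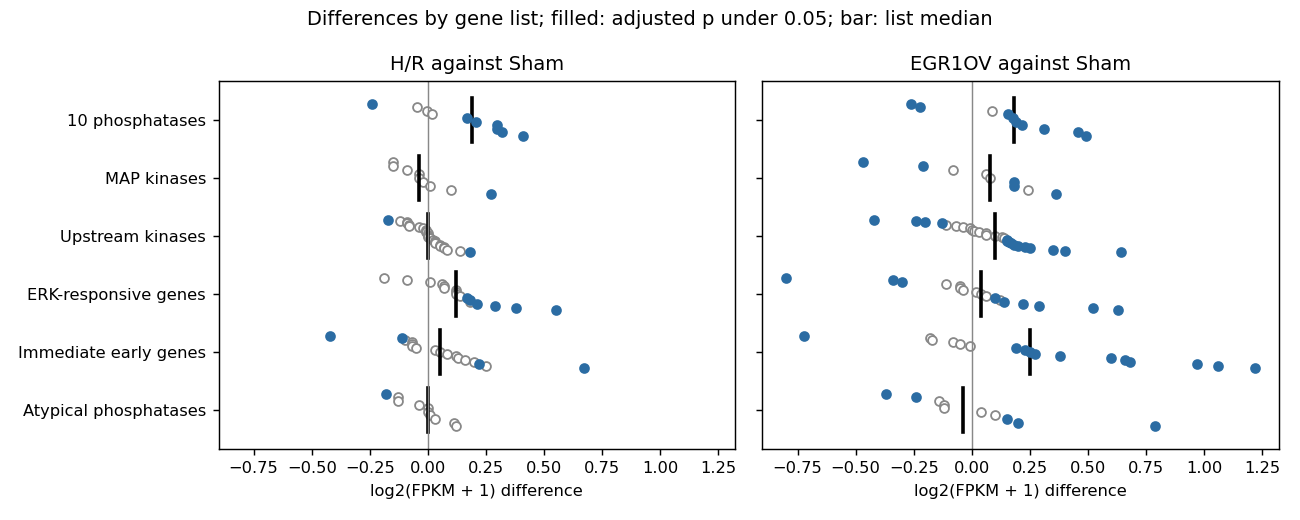
Difference in mean log2(FPKM + 1) against Sham for single genes of the phosphatase family and of 5 pathway lists, for H/R on the left and EGR1OV on the right. Filled points have an adjusted p under 0.05 and black bars are list medians, +0.19 for the phosphatases and +0.12 for the ERK-responsive genes after H/R, and +0.18 and +0.25 for the phosphatases and the immediate early genes in EGR1OV.

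The genes whose pattern was most like that of the 2 members called in EGR1OV were sought among the 7172 protein-coding genes that averaged 5 FPKM or more. Likeness was Pearson's r of log2(FPKM + 1) over the 9 libraries, which share 3 groups, so it describes mostly the group means. For Dusp4 the highest values were those of Itga2 (0.989), Igsf11 (0.988) and Btg1 (0.985), and 556 genes had an r over 0.9. Itga2, an integrin subunit, was at 15.0, 19.1 and 28.6 FPKM in the means of Sham, H/R and EGR1OV, the same order as Dusp4. For Dusp2 they were Pdcd6 (0.981), Maml2 (0.973) and Tjp1 (0.969), and 64 genes had an r over 0.9.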

How the data were processed

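Total RNA of mouse primary renal tubular epithelial cells was sequenced in 9 libraries on an Illumina NovaSeq instrument. FPKM per gene and library were deposited by the authors in 1 table, with no pooling of replicates. The submitters' processing notes name Bowtie2 2.2.3, HISAT2 2.1.0, TopHat2 and the build mm9, without roles, but 94.6% of gene positions were equal to GENCODE M21 (GRCm38), and positions are given as in the table. The gene counter and its use of strand are not given in the sources used here. Groups and replicate numbers came from the sample titles.

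Tests used log2(FPKM + 1), a scale that understates changes of low genes. Of 29404 genes above 0, the 13985 with a mean of at least 0.5 FPKM entered a limma fit of all libraries (version 3.58.1 under R 4.3.3, eBayes with a mean-variance trend, two-sided, Benjamini-Hochberg). Calls required an adjusted p under 0.05 with a change of 1.3-fold (1.2-fold between H/R and Sham). The fold thresholds of the comparisons with Sham are the study's. Single members were also compared by exact two-sided permutation. FPKM steps gave whole reads for 94.2% of 163594 values of 1 to 1000 reads, within 0.02 reads. Depth thus recovered differed by a ratio of 1.14, and, without molecular identifiers, reads are not counts of independent molecules.

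The members and gene lists were chosen with earlier results of these data known. All 10 members are named, from each list up to 3 called genes with the largest change per comparison, and for each of the called members in EGR1OV the 3 most correlated genes. The scripts were tested on simulated data. Each choice was varied: the pseudocount (0.1), the filter (none, or a mean of 5 FPKM), the scaling (quantile or median-ratio), a replicate block, limma without trend, only the groups compared, voom on recovered reads, other fold thresholds, and each library left out. Protein sequences were not used here. Tables and figures were made in Python 3.11.15 (pandas 2.3.3, scipy 1.17.1, numpy 2.4.6, matplotlib 3.10.9).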

Additional observations from a re-analysis of the deposited data

How the results depend on the processing

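Of the member values recomputed under the alternatives, 486 kept their direction and their side of the threshold, 35 kept their direction and were no longer past it, 1 came past it and 15 turned sign. The calls of Dusp2 and Dusp4 in EGR1OV and of Dusp5, Dusp6 and Dusp10 after H/R were made under every alternative other than the 2-fold threshold. With no fold threshold 9 members passed in EGR1OV against Sham, 7 passed after H/R, and 6 between the treated groups. At 2-fold they were 0 in each of the first 2. With a library left out, 3 to 4 members were called after H/R. The signs that turned were of differences not past the threshold as deposited. Dusp16 after H/R was +0.034 under median-ratio scaling and +0.036 under quantile normalization, and ran from -0.022 to 0.017 with a library left out. Dusp9 after H/R ran from -0.029 to 0.07. Between EGR1OV and H/R, Dusp1 was -0.054 and -0.065 under these scalings and -0.002 to 0.037 with a library left out. Dusp10 was -0.054 and -0.12 (limma adjusted p 0.0441 for the latter) and -0.02 to 0.045. Dusp9 was -0.03 after quantile normalization, and it gave no value at a mean of at least 5 FPKM, which it did not reach. Dusp7 came past the threshold after quantile normalization, at -0.162 (adjusted p 0.0115). The cause was not tested. Without the filter on low values, Dusp2 and Dusp4 after H/R had an adjusted p of 0.0742 and 0.0665, with more genes tested.

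The split of called genes depended on scaling. Called genes that were higher made up 60.3% for EGR1OV against Sham as deposited and 45.9% after quantile normalization. For H/R against Sham they made up 37.7%, and 58.2% and 56.5% with median-ratio scaling and quantile normalization. For EGR1OV against H/R they made up 63.2%, and 51% and 42.5%. Over all genes, 594 were called after H/R and 905 with voom on recovered reads. At 2-fold 484, 11 and 489 genes were called in these comparisons, in the same order, where 2291, 594 and 2641 were called at the thresholds used.

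Deviations from the group means had correlations of -0.195 to 0.263 between libraries of different groups with the same replicate number. Between libraries with different numbers the correlations were -0.222 to 0.179. The source of each replicate is not given, and these values cannot decide whether libraries with the same number shared a mouse or a culture. With the replicate number as a block, 2, 4 and 0 members were called, as without it, and Dusp4 after H/R had an adjusted p of 0.0591.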
